A study of Mus musculus with 28 samples.

Results

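The erythroid regulator and effector loci comprise 5 stretches of the mouse genome around Klf1, Tal1, Gfi1b, Epor and Slc4a1, in which peaks of 5-hydroxymethylcytosine (5hmC) and 5-methylcytosine (5mC) were described across Tet genotypes. A peak belonged to a locus when it overlapped its window in build mm9. The windows were chr8:87410001-87440000 for Klf1, chr4:114690001-114800000 for Tal1, chr2:28440001-28500000 for Gfi1b, chr9:21740001-21790000 for Epor and chr11:102190001-102240000 for Slc4a1, 300 kb in all. They held 498 of the 1489550 peaks in the 11 peak lists. All 11 lists came from LK cells of the bone marrow (BM) of C57BL/6 mice aged 6 to 10 weeks. The groups were DKO (combined loss of Tet1 and Tet2), Tet2KO (labelled Tet2 KO or Tet2-/-) and WT. The sources used here do not state the kind of allele, any promoter behind a deletion, or whether animals were pooled. For 5hmC, captured by selective chemical labelling (hMe-Seal), there were 2 libraries for each genotype. For 5mC, immunoprecipitated from DNA (MeDIP-seq), there were 2 DKO libraries, 1 Tet2KO library and 2 WT libraries. Whether the libraries of a genotype came from separate mice is not stated, so the spread behind each p-value may be technical. Peak lists hold no markers by which the cell type could be checked. The 17 RNA-seq samples of the series were not analysed here.

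Tet1 and Tet2 are dioxygenases that oxidise the methyl group of 5mC to 5hmC, a step towards unmethylated cytosine. In blood cells 5hmC is found at active and poised enhancers and in the bodies of transcribed genes, while CpG-rich active promoters usually carry little of either mark. Klf1 is an erythroid zinc-finger activator that binds CACCC elements and switches on globin and red-cell membrane genes. Tal1 is a basic helix-loop-helix factor needed for blood formation, and in erythroid cells it works in complexes with GATA1. Gfi1b is a zinc-finger repressor needed for the erythroid and megakaryocytic lineages. Epor is the receptor for erythropoietin, which keeps erythroid progenitors alive and dividing. Slc4a1 encodes band 3, the anion exchanger and membrane anchor of the mature red cell.

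The promoters of these genes differ in their content of CpG, the dinucleotide on which both marks sit in most cells. RefSeq promoter sequences (250 bases before to 50 after the start, build GRCm38) matched 4 of the 5 genes, Tal1 with 2 starts. Those of Klf1 (chr8:84901732-84902031, + strand), the downstream start of Tal1 (chr4:115057561-115057860, + strand), Gfi1b (chr2:28621933-28622232, - strand) and Epor (chr9:21963527-21963826, - strand) are shown 5′ to 3′ because they span the range from few to many CpG. Capitals mark each CG.
Klf1: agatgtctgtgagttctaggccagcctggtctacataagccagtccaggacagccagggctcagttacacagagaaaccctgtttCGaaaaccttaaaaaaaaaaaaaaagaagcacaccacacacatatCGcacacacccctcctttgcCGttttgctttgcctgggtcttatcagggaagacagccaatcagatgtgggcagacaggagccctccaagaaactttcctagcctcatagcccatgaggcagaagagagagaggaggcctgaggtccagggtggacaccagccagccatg
Tal1: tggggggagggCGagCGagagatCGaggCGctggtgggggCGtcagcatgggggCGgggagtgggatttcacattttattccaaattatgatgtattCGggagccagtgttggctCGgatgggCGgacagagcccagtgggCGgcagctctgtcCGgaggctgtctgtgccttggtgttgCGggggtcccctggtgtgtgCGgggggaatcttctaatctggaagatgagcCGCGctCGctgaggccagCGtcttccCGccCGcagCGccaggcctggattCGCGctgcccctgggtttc
Gfi1b: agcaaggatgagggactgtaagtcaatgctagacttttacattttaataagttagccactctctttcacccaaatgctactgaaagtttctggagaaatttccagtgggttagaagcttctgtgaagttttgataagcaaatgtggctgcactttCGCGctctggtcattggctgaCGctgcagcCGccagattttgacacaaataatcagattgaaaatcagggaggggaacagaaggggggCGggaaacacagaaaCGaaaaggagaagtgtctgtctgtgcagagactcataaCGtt
Epor: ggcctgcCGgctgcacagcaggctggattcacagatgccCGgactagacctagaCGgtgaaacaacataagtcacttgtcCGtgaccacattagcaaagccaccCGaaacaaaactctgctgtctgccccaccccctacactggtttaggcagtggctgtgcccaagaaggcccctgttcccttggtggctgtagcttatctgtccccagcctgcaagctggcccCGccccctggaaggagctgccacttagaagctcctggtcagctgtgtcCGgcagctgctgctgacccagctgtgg
The Klf1 promoter held 3 CG, and 76.7% of the 32851 promoters in the table held at least as many. The Gfi1b and Epor promoters held 7 CG each, the median of all promoters. The downstream Tal1 start held 22 CG, a number reached by 23.1% of promoters, and the upstream Tal1 start held 11, reached by 41.4%. The GATA-factor letters GATAA, or TTATC on the other strand, occurred 1 time each in the Klf1, Gfi1b, Epor and upstream Tal1 promoters and 0 times at the downstream Tal1 start, against 25.4% of all promoters with a match. The letters CACCC or GGGTG, which the KLF family recognises, occurred 2 times each in the Klf1 and Epor promoters 1 time each in the Gfi1b and upstream Tal1 promoters and 0 times at the downstream Tal1 start, and 57.5% of all promoters held them. The peaks are in mm9 coordinates and these sequences in GRCm38, so where the promoters lie relative to the peaks was not determined. For the same reason no peak is assigned below to an exon, an intron or a neighbouring gene. The nearest RefSeq genes on either side are Gcdh and Dnase2a for Klf1, Stil and Pdzk1ip1 for Tal1, Gtf3c5 and Tsc1 for Gfi1b, Swsap1 and Rgl3 for Epor, and Ubtf and Rundc3a for Slc4a1.

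Each deposited list gives a peak's position and a score, with a lowest score of 50.00 or 50.01 in every list. The lists held between 128471 and 143960 peaks for 5hmC and between 120243 and 147934 for 5mC, which together covered 98.5 to 112 Mb and 43.5 to 45.1 Mb. The median peak width was 598 to 728 bp for 5hmC and 275 to 331 bp for 5mC, so covered lengths are compared within a mark, and between marks only side by side. Read depth is unknown, and a stretch without a peak is one below the authors' score limit, not one shown to lack the mark. At the 5 loci the 5hmC lists held 53 and 60 peaks in DKO, 48 and 62 in Tet2KO and 52 and 50 in WT. The 5mC lists held 42 and 34 in DKO, 34 in the Tet2KO library and 28 and 35 in WT. The first Tet2KO 5hmC library had the fewest 5hmC peaks at the loci and the second the most, so Tet2KO values are given for each.

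The loci carried the marks in different proportions. Among the 5 windows, 5hmC peaks covered the largest shares at Gfi1b and Klf1, and 5mC peaks the largest shares at Epor and Slc4a1. Over all 6 libraries, 5hmC covered 27.8% ± 2.8 of the Gfi1b window, 24.3% ± 3.33 of Klf1, 10.7% ± 1.46 of Tal1, 9.19% ± 1.81 of Epor and 8.42% ± 2.55 of Slc4a1 (SD, n = 6 libraries of 3 genotypes). The ranges of Gfi1b (23.7 to 31.1%) and Klf1 (19.6 to 27.6%) overlapped, as did those of Tal1 (8.39 to 12.5%), Epor (7.34 to 11.9%) and Slc4a1 (3.59 to 10.7%), and the first pair did not overlap the other loci. The order of 5mC differed, with 11.4% ± 0.443 at Epor, 7.38% ± 0.593 at Slc4a1, 4.2% ± 0.483 at Klf1, 2.81% ± 0.395 at Gfi1b and 1.24% ± 0.305 at Tal1 (SD, n = 5 libraries). No 2 neighbours in the 5mC order overlapped, and all 5 libraries gave that order.

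The genome cut into tiles of the same length puts these values in context. Only tiles with a peak of the mark in at least 2 libraries were kept. The medians and shares of tiles below therefore leave out the rest of the genome. The 5hmC coverage of Gfi1b, 27.8% on average, stood against a median of 4.9% over tiles, and 6.09% of tiles reached it. For Klf1 the median was 5.89% and 11.1% of tiles reached the locus. Tal1, Epor and Slc4a1 were less unusual in 5hmC, with 25.8%, 33.8% and 36.3% of tiles at or above them. In 5mC the receptor and transporter loci stood highest. The median tile had 1.56% at their length, and 1.89% of tiles reached Epor and 6.66% reached Slc4a1. Klf1 and Gfi1b were reached by 23.2% and 30.5% of tiles in 5mC, and Tal1, at 1.24%, lay close to its median of 1.19%.

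**Figure D1:**
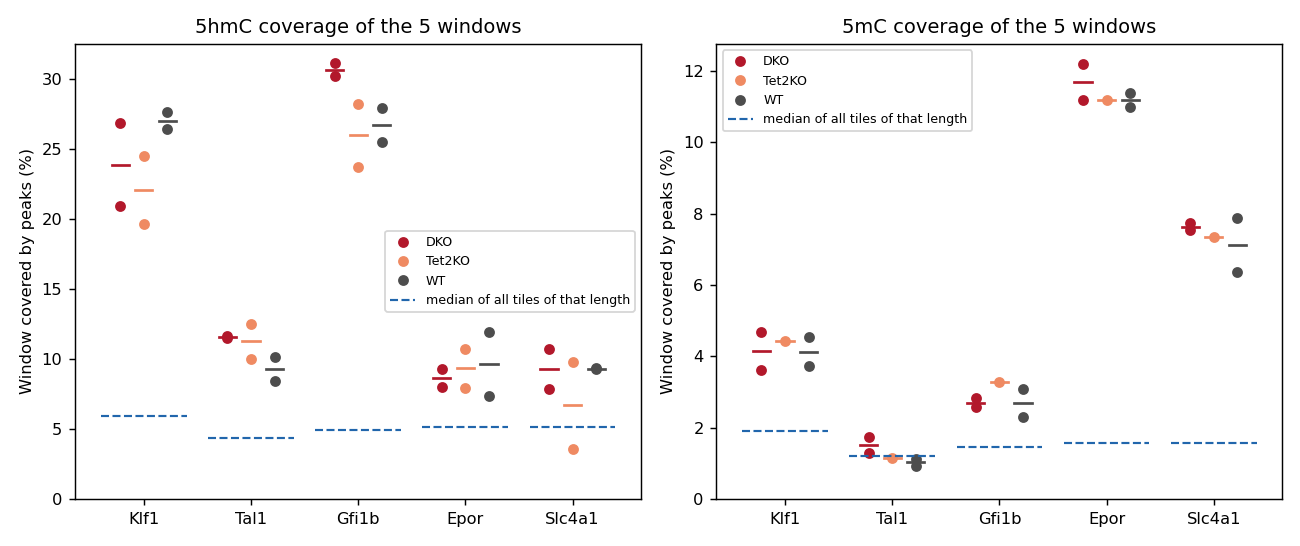
Share of each window covered by peaks (%), for 5hmC (left) and 5mC (right), with DKO, Tet2KO and WT from left to right within a locus. Points are libraries and bars are genotype means. The dashed line is the median of genome tiles of that length with a peak of the mark in at least 2 libraries. Gfi1b and Klf1 lie far above the dashed line in 5hmC (27.8% and 24.3% on average), Epor and Slc4a1 in 5mC (11.4% and 7.38%), and at Gfi1b both DKO libraries lie above all others in 5hmC.

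At Klf1 both marks kept the same places in nearly all libraries. Of 9 regions of 5hmC (overlapping peaks of any library joined), 7 had a peak in all 6 libraries, and each library had 8 peaks. The 7 ran over 20.9 kb, of which 28.1 to 37.8% was covered in each library. The region chr8:87435665-87437195 ranked high in every library, with scores of 491.57 and 481.33 in DKO, 465.02 and 376.57 in Tet2KO and 310.92 and 470.76 in WT, in the top 2.64 to 7.05% of each list. The widest, chr8:87432951-87434744, measured 1794 bp. Another region, chr8:87428026-87429063, had scores of 77.28 and 177.71 in DKO, 185.67 and 180.06 in Tet2KO and 182.62 and 193.68 in WT, and it too held a constant 5mC region. The 5mC peaks of Klf1 were few, 2 or 3 per library, and 3 of 4 regions were present in all 5 libraries. Of these 3, chr8:87439983-87440674 lay mostly beyond the window's end. Peaks were counted only where they overlapped the window, and lengths stopped at its edge, so some libraries had fewer peaks than constant regions. The widest 5mC region, chr8:87435835-87436792 (958 bp), lay inside the 5hmC region chr8:87435665-87437195. Its scores were 410.95 and 424.42 in DKO, 482.3 in Tet2KO and 422.59 and 463.8 in WT. Over pairs of libraries of a genotype, 87.9 to 99.6% of the 5mC length in DKO, 82.7 to 92.2% in Tet2KO and 86.5 to 100% in WT was also under 5hmC peaks, against 22.4 to 23.6%, 21.0 to 21.4% and 25.0 to 26.7% over the genome. The Klf1 shares leave out the part of chr8:87439983-87440674 beyond the window. The 5hmC region that overlapped that 5mC region had a peak in 2 libraries.

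The 5hmC coverage of Klf1 was 26.8% and 20.9% in DKO, 19.6% and 24.5% in Tet2KO and 27.6% and 26.4% in WT. The Tet2KO libraries both lay below the WT libraries, and 1 DKO library lay between the WT values. Over the whole genome, too, both Tet2KO 5hmC lists covered less than both WT lists (112 and 109 Mb). The order of Tet2KO below WT was therefore not particular to Klf1. The region chr8:87423940-87425367 varied most in score, with 309.17 and a strongest peak of 190.93 in DKO, a strongest peak of 104.61 and 494.93 in Tet2KO, and 247.11 and 285.44 in WT. Its lowest and highest values were both Tet2KO libraries. The 5mC coverage was 3.62% and 4.67% in DKO, 4.44% in Tet2KO and 3.74% and 4.53% in WT, with overlapping groups.

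At Gfi1b 5hmC formed a dense block. Of 17 regions, 11 were present in all 6 libraries, and these ran over 26.9 kb, from chr2:28449710 to 28476623, of which 52.8 to 65% was covered in each library. Outside the block the window held few peaks, with no region over the 8.63 kb that followed it. The bin chr2:28460001-28470000 was covered to between 60.1 and 71%, with a median of 68.9%, the highest of the 30 bins of 10 kb in the 5 windows. The widest region, chr2:28466270-28469682, measured 3413 bp. The regions with the highest single scores were chr2:28461377-28463738 and chr2:28474394-28476623. The first had top scores of 526.85 and 226.58 in DKO, 371.59 and 682.85 in Tet2KO and 216.41 and 266.56 in WT. The second had top scores of 610.58 and 355.55 in DKO, 473.46 and 650.59 in Tet2KO and 435.83 and 426.55 in WT. Another, chr2:28455326-28456919, varied little, with 328.22 and 358.16 in DKO, 275.04 and 372.77 in Tet2KO and 339.86 and 321.53 in WT. In the first pair of regions the highest score was that of the second Tet2KO library, and the DKO and WT values overlapped.

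The 5mC of Gfi1b lay within that block. Of 7 regions of 5mC, 4 had a peak in all 5 libraries, and all 4 lay wholly inside 5hmC regions present in all 6 libraries. Across the genome 15.7% of the 5mC regions present in every library lay inside such 5hmC regions. The widest, chr2:28469115-28469662 (548 bp), had scores of 447.46 and 310.25 in DKO, 466.6 in Tet2KO and 554.68 and 424.33 in WT. The region chr2:28455901-28456291 had 437.75 and 395.15 in DKO, 399.11 in Tet2KO and 249.32 and 394.16 in WT. The DKO values overlapped those of WT in the first region, and lay above both WT values in the second. The 5hmC regions that held them were chr2:28455326-28456919, chr2:28464444-28465934 and chr2:28466270-28469682, the last with a pair of them. Coverage of the window by 5mC was 2.83% and 2.57% in DKO, 3.27% in Tet2KO and 3.09% and 2.29% in WT.

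The 5hmC coverage of Gfi1b was 31.1% and 30.2% in DKO, 23.7% and 28.2% in Tet2KO and 27.9% and 25.5% in WT. Both DKO libraries lay above all others, and the Tet2KO libraries lay on either side of the WT libraries. DKO averaged 18.4 ± 0.401 kb, Tet2KO 15.6 ± 1.93 kb and WT 16 ± 1.01 kb (SD, n = 2 each). Genome-wide, the DKO lists covered 110 and 106 Mb and the WT lists 112 and 109 Mb, with overlapping ranges.

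The 110 kb window of Tal1 held 28 regions of 5hmC, of which 8 were present in all 6 libraries (28.6%, against 29.9% genome-wide) and 6 in a single one. The most covered bin, chr4:114740001-114750000, ranged from 27.4 to 45.2%, and the region with the highest single score, chr4:114748335-114749737, lay in it. Its top scores were 209.75 and 326.1 in DKO, 161.38 and 255.55 in Tet2KO and 266.55 and 161.81 in WT, with overlapping genotypes. The widest region, chr4:114742205-114743796 (1592 bp), had a peak in both DKO libraries, 1 Tet2KO library and 1 WT library. No library had a 5hmC or 5mC peak in the first 10 kb of the window. The 5mC regions numbered 12, with 2 in all 5 libraries and 6 in 1 library. The stronger of the pair, chr4:114772349-114772781, had scores of 296.4 and 123.12 in DKO, 242.27 in Tet2KO and 243.73 and 198.81 in WT, and the DKO libraries were its highest and lowest. The wider, chr4:114765532-114766001 (470 bp), had 136.29 and 118.31 in DKO, 144.95 in Tet2KO and 92.69 and 151.86 in WT. None of the 2 constant 5mC regions touched a 5hmC region present in all libraries.

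The 5hmC coverage of Tal1 was 11.6% and 11.5% in DKO, 10% and 12.5% in Tet2KO and 10.1% and 8.39% in WT. The DKO libraries lay above both WT libraries, and the lower Tet2KO library lay between the WT values. In kb, DKO averaged 12.7 ± 0.082, Tet2KO 12.4 ± 1.92 and WT 10.2 ± 1.36 (SD, n = 2 each). The 5mC coverage was 1.75% and 1.28% in DKO, 1.14% in Tet2KO and 0.936% and 1.12% in WT. Here too both DKO libraries were above the WT libraries, by less than 1 percentage point.

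**Figure D2:**
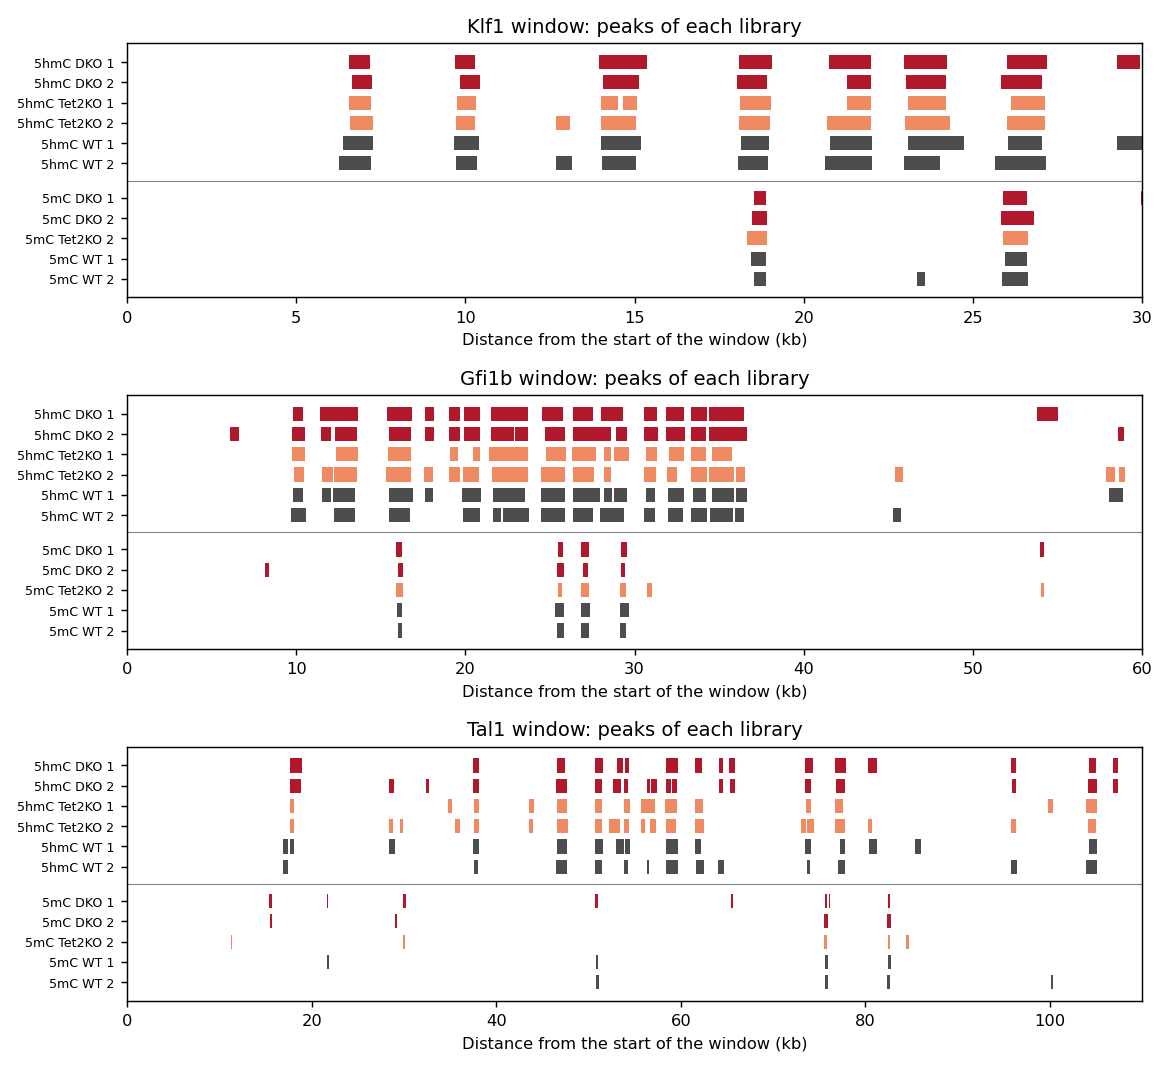
Peaks of each library in the windows of Klf1, Gfi1b and Tal1 (top to bottom), plotted by distance from the start of the window (kb); within each panel the 5hmC libraries stand above the line and the 5mC libraries below it, with DKO, Tet2KO and WT from top to bottom. The 26.9 kb block of 5hmC at Gfi1b and the 7 shared regions at Klf1 run through all 6 libraries, and most 5mC peaks at these loci lie under 5hmC peaks, unlike at Tal1.

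At Epor, 5hmC was highest in the middle of the window and 5mC at both ends. Of 8 regions of 5hmC, 5 were in all 6 libraries, and the central bin chr9:21760001-21770000 was covered to between 22 and 34.3%. In the first bin, chr9:21740001-21750000, 5mC covered 17.9 to 21.5% and 5hmC 5.86 to 13.2%. In the last, chr9:21780001-21790000, 5mC covered 17.2 to 25.1%, and 5hmC had a peak in 1 of 6 libraries. The 5mC region chr9:21747611-21749181 (1571 bp) was the widest of that mark at the 5 loci. Its top scores were 1171.59 and 869.43 in DKO, 1262.05 in Tet2KO and 933.29 and 1120.48 in WT, in the top 0.814 to 1.66% of each list. The region chr9:21785361-21786205 had scores of 1144.08 and 828.16 in DKO, 948.04 in Tet2KO and 768.56 and 1222.82 in WT, and no 5hmC region overlapped it. In both of these 5mC regions, DKO and WT libraries overlapped. The first overlapped a 5hmC region present in all 6 libraries, chr9:21748446-21749288, with scores of 65.24 and 147.2 in DKO, 125.42 and 121.44 in Tet2KO and 142.59 and 116.63 in WT.

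The 5hmC region of Epor with the highest single score was chr9:21764658-21766366. Its top scores were 290.64 and 210.6 in DKO, 218.81 and 407.15 in Tet2KO and 210.78 and 303.96 in WT, and a 5mC region present in all 5 libraries overlapped it. That 5mC region, chr9:21764805-21765459, had scores of 679.79 and 343.45 in DKO, 628.84 in Tet2KO and 428.28 and 690.86 in WT. Coverage of the Epor window by 5hmC was 7.96% and 9.25% in DKO, 7.93% and 10.7% in Tet2KO and 7.34% and 11.9% in WT. The 2 WT libraries were the lowest and the highest of the 6. Over pairs of libraries, 20.8 to 26.1% of the 5hmC length in DKO, 22 to 30.6% in Tet2KO and 22.3 to 37.5% in WT was also under 5mC peaks, above the 9.32 to 10.5% of the genome. Coverage by 5mC was 12.2% and 11.2% in DKO, 11.2% in Tet2KO and 11.4% and 11% in WT.

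Slc4a1 had a long stretch of 5mC without 5hmC. It had the fewest constant 5hmC regions, 3 of 9, and no 5hmC region lay between chr11:102200856 and 102220818, a stretch of 20 kb. That stretch held 9 regions of 5mC, of which 4 were in all 5 libraries. The bin chr11:102210001-102220000 had 5mC over 13.2 to 18.7% of its length and no 5hmC peak in any library. The widest 5mC region, chr11:102212161-102212961 (801 bp), had scores of 397.96 and 342.65 in DKO, 343.36 in Tet2KO and 381.09 and 241.86 in WT. None of the 7 constant 5mC regions overlapped a constant 5hmC region, but 3 of the 9 regions of 5hmC touched some 5mC region. One of these, chr11:102238414-102239429, had 5hmC in 4 libraries and lay on a 5mC region of all 5. Over pairs of libraries, 0.843 to 10.5% of the 5hmC length in DKO, 0 to 6.82% in Tet2KO and 8.84 to 18.9% in WT was under 5mC peaks, and the genome had 9.32 to 9.53%, 9.53 to 9.6% and 10.3 to 10.5% in the same genotypes. No 5hmC peak scored above 248.53, and the widest region, chr11:102228956-102230073, had scores of 136.33 and 101.54 in DKO, 78.9 and 248.53 in Tet2KO and 95.79 and 80.24 in WT. The DKO values lay above both WT values, and the Tet2KO values were the lowest and the highest.

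The 5hmC coverage of Slc4a1 was 10.7% and 7.83% in DKO, 3.59% and 9.76% in Tet2KO and 9.34% and 9.25% in WT. The first Tet2KO library, with 3 peaks, stood far below the other 5, which had 7 or 8. It lacked the regions from chr11:102224550 and chr11:102234099, which the other 5 libraries had. The difference of Tet2KO minus WT was -1.31 kb with both libraries and 0.233 kb without it. Coverage by 5mC was 7.55% and 7.73% in DKO, 7.34% in Tet2KO and 6.38% and 7.89% in WT.

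**Figure D3:**
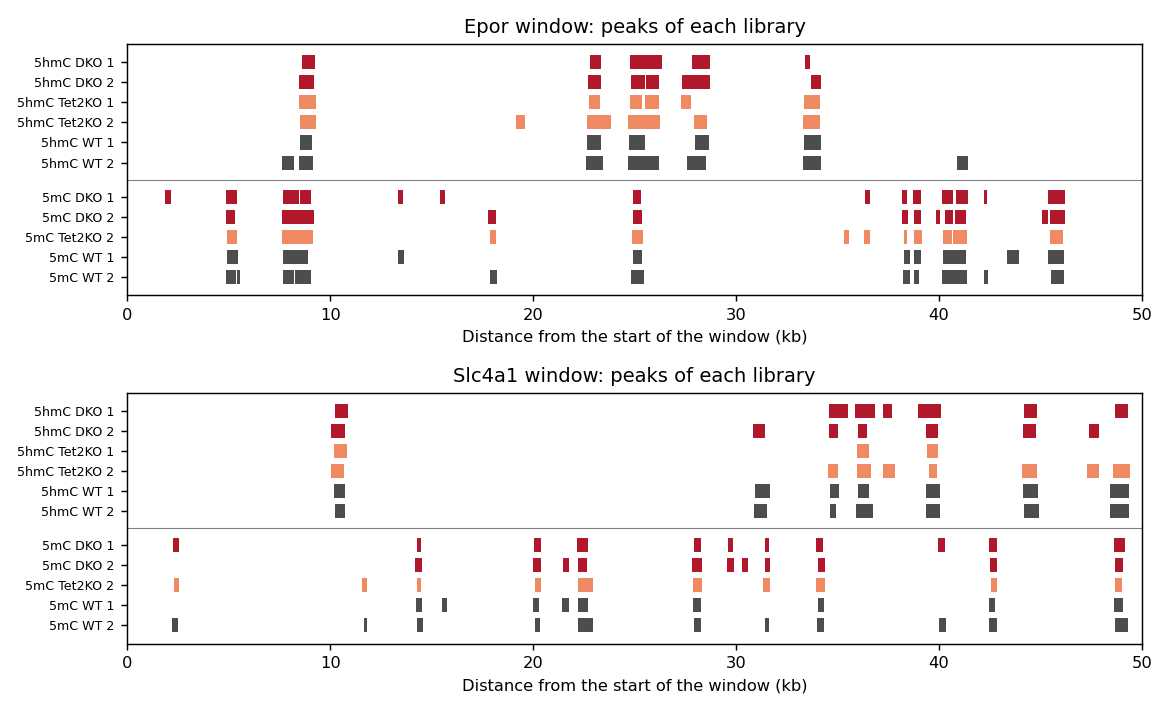
Peaks of each library in the windows of Epor (top) and Slc4a1 (bottom), plotted by distance from the start of the window (kb), with the 5hmC libraries above the line and the 5mC libraries below it, and DKO, Tet2KO and WT from top to bottom. At Epor the widest 5mC peaks lie toward the ends of the window and most 5hmC peaks in its middle, and a 20 kb stretch of Slc4a1 has 5mC peaks and no 5hmC peak.

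Summed over the loci, 8 of 23 5mC regions present in all 5 libraries (34.8%) overlapped a 5hmC region present in all 6, against 19.7% over the genome. All 4 of Gfi1b and 2 of 3 of Klf1 did so, 2 of 7 of Epor, and none of the 7 of Slc4a1 or the 2 of Tal1. The reverse share, 7 of 34 constant 5hmC regions on constant 5mC (20.6%), was close to the 19.9% of the genome. Constant regions made up 47.9% of the 71 regions of 5hmC at the loci (29.9% genome-wide) and 41.8% of the 55 regions of 5mC (32.3% genome-wide). By locus, the constant share of 5hmC was 77.8% at Klf1, 64.7% at Gfi1b and 62.5% at Epor, against 33.3% at Slc4a1 and 28.6% at Tal1. 5hmC covered 33 kb more than 5mC of the 5 windows in DKO and 30.6 kb more in WT, with wider 5hmC peaks throughout the lists. These are counts and lengths without a test, since the regions of a library share its source.

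**Figure D4:**
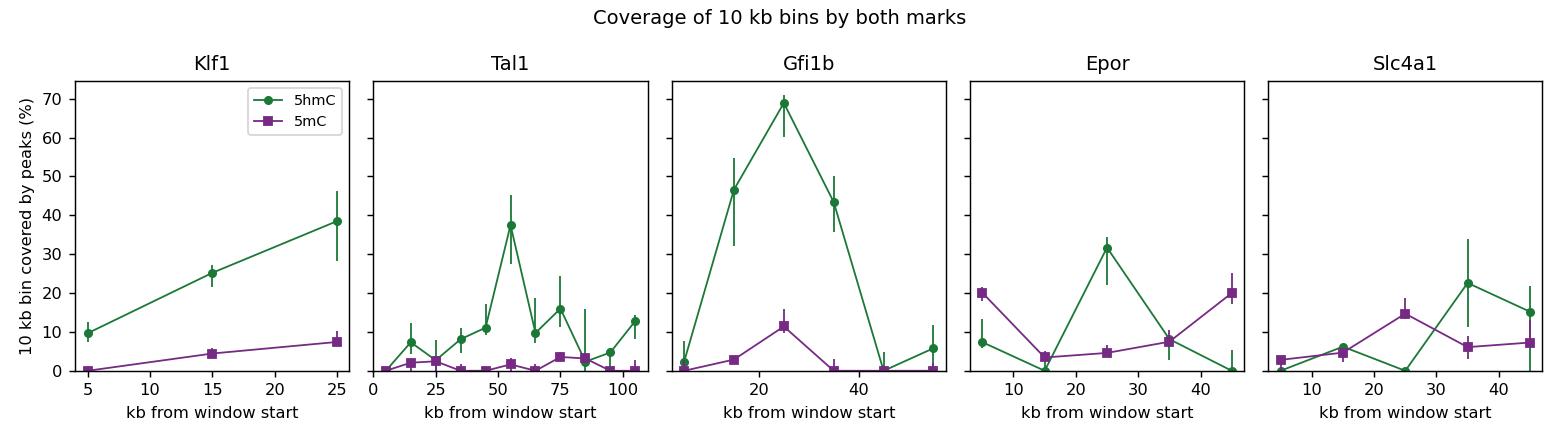
Share of each 10 kb bin covered by peaks (%), against the distance of the bin's centre from the start of its window (kb), for 5hmC (circles) and 5mC (squares); symbols are medians over the 6 or 5 libraries of all genotypes and vertical lines run from the lowest to the highest library. Both marks peak in the same bin at Gfi1b (68.9% and 11.4%), while the bin highest in 5mC has a 5hmC median of 7.37% at Epor and 0% at Slc4a1.

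No window passed the test of 5hmC coverage in Tet2KO against WT. In Tet2KO, 5hmC covered 42.6 ± 8.06 kb of the 5 windows together, and in WT 43.8 ± 1.04 kb (SD, n = 2 each). The Tet2KO libraries held 36.9 and 48.3 kb and the WT libraries 44.5 and 43 kb. Without the first Tet2KO library, Tet2KO therefore lay above WT. The windows were tested with limma on arcsine-transformed coverage, together with all 50 kb bins of the genome and adjusted over them. None of the 5 windows passed an adjusted p of 0.05, and neither did any bin, so that 0% of 23492 were called, with 2737 at an unadjusted p under 0.05 but no window among them. The lowest adjusted p of a window was that of Klf1 at 0.587, with 22.1% covered in Tet2KO and 27% in WT. The 95% interval of its Tet2KO coverage, with WT held at its mean, ran from 15.7 to 29.1%. At Slc4a1, with 6.67% in Tet2KO and 9.29% in WT, the interval ran from 2.18 to 12.4% (adjusted p = 0.681). The adjusted p was 0.675 for Tal1, 0.948 for Gfi1b and 0.995 for Epor. In 10 kb bins, limma called 0% of 74281 bins, with 7806 at an unadjusted p under 0.05 and none of them among the 25 tested bins of the loci.

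No window passed in DKO against WT either. 5hmC covered 47.2 ± 2.32 kb of the 5 windows in DKO and 43.8 ± 1.04 kb in WT (SD, n = 2 each). limma called 0% of 23492 windows and bins in this comparison, with 2011 at an unadjusted p under 0.05 and no window among them. Gfi1b, with 30.7% in DKO and 26.7% in WT, had the lowest adjusted p, 0.739, and a 95% interval of 24.8 to 36.9% for its DKO coverage. Tal1, with 11.5% in DKO and 9.27% in WT, had an interval of 7.95 to 15.7% (adjusted p = 0.766). Klf1 had 23.9% in DKO and 27% in WT (adjusted p = 0.806). Epor had 8.6% in DKO and 9.64% in WT (adjusted p = 0.936), and Slc4a1 had 9.28% in DKO and 9.29% in WT (adjusted p = 1). Of 74281 bins of 10 kb, 0% were called by limma, and 7139 had an unadjusted p under 0.05, none of them at the loci.

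Setting DKO beside Tet2KO bears on the added loss of Tet1. The 5 windows held 47.2 ± 2.32 kb of 5hmC in DKO and 42.6 ± 8.06 kb in Tet2KO, and without the first Tet2KO library the difference of DKO minus Tet2KO was -1.12 kb, against 4.57 kb with both. limma called 0% of 23492 windows and bins and 0% of 74281 bins of 10 kb, with 1840 and 5445 at an unadjusted p under 0.05. The adjusted p of the windows lay between 0.731 (Gfi1b, 30.7% in DKO and 26% in Tet2KO) and 1 (Tal1, 11.5% in DKO and 11.3% in Tet2KO). It was 0.811 for Slc4a1, 0.907 for Klf1 and 0.971 for Epor. The unadjusted p was under 0.05 in 3 bins of the loci. The Gfi1b bin chr2:28470001-28480000 was covered to 49.6% in DKO and 39.09% in Tet2KO (limma adjusted p = 0.636). The Tal1 bin chr4:114700001-114710000 had 11.7% in DKO and 4.28% in Tet2KO (limma adjusted p = 0.587), and the Tal1 bin chr4:114730001-114740000 had 10.08% in DKO and 17.01% in Tet2KO (limma adjusted p = 0.618). When only peaks scoring 100 or more were used, the Gfi1b bin had 45.69% in DKO and 25.17% in Tet2KO, the first Tal1 bin 2.575% in DKO and 2.14% in Tet2KO, and the second Tal1 bin 10.08% in DKO and 11.84% in Tet2KO. The DKO and WT libraries, and the Tet2KO and WT libraries, enter more than one of these comparisons.

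For 5mC, no window passed the test in DKO against WT. 5mC covered 14.2 ± 0.518 kb of the 5 windows in DKO and 13.2 ± 0.364 kb in WT (SD, n = 2 each), beside 13.8 kb in the lone Tet2KO library. limma called 0% of 34501 windows and bins, with 1674 at an unadjusted p under 0.05 and no window among them. The adjusted p was 0.93 for Tal1, 0.98 for Slc4a1, 0.983 for Epor and 1 for Klf1 and Gfi1b. The intervals were narrower than those of 5hmC in percentage points. With WT held at its mean, DKO coverage of Epor ran from 9.67 to 13.9% (11.2% in WT), and that of Slc4a1 from 5.64 to 9.96% (7.13% in WT). Of 90130 bins of 10 kb limma called 0%, with 6130 at an unadjusted p under 0.05. One of these was at the loci, the Tal1 bin chr4:114700001-114710000, with 2.335% in DKO and 0% in WT (limma adjusted p = 0.585). In the same bin the Tet2KO library had 2.08%. The lone Tet2KO 5mC library was part of the fit and of no comparison.

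Single regions were then compared by presence, a region counting as lost or gained when 2 of 2 libraries of one genotype and 0 of 2 of the other had a peak in it. Such a call has no p-value, and its background is the share of all regions called the same way. In Tet2KO against WT, 2 of 71 regions of 5hmC were lost (2.82%, against 3.27% of 206417 genome-wide) and 3 gained (4.23%, against 3.42%). In DKO against WT, 1 was lost (1.41%, against 3.3%) and 4 gained (5.63%, against 4.18%). In DKO against Tet2KO, 2 were lost (2.82%, against 2.21%) and 4 gained (5.63%, against 2.81%). For 5mC in DKO against WT, 0 of 55 were lost (against 2.37% of 218122) and 2 gained (3.64%, against 2.53%). Each share at the loci rests on 0 to 4 regions, and none is read as a result about the loci.

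In any of the 3 comparisons of 5hmC, 9 of the 71 regions were called (12.7%, against 13.2% genome-wide). They were 7 of 28 regions at Tal1, 1 of 17 at Gfi1b, 1 of 9 at Slc4a1, 0 of 9 at Klf1 and 0 of 8 at Epor. The region chr2:28459003-28459697 at Gfi1b (695 bp) had a peak in every knockout library, with scores of 83.86 and 110.43 in DKO and 53.47 and 81.4 in Tet2KO, and none in WT. It lies within the dense block, and the nearest WT peaks were 82 and 150 bp away. When peaks up to 200 bp apart were joined it was no longer called. The region chr11:102220819-102221668 at Slc4a1 (850 bp) had a score of 59.62 in 1 DKO library, no peak in Tet2KO, where the nearest peaks were 4305 and 2881 bp away, and scores of 120.26 and 77.4 in WT. It borders the 20 kb stretch without 5hmC by definition, since that stretch was taken to end where this region starts. The region chr4:114706870-114707405 at Tal1 (536 bp) had no peak in either knockout and scores of 57.63 and 73.19 in WT. The nearest peak lay 243 to 280 bp away in each of the 4 knockout libraries.

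The other 6 regions at Tal1 all had a peak in both libraries of 1 knockout. In DKO and not in Tet2KO were chr4:114708179-114708905, chr4:114754047-114754684, chr4:114755277-114755907 and chr4:114796859-114797416, with scores from 51.36 to 67.71. Of these, chr4:114754047-114754684 also had a peak in 1 of 2 WT libraries, and the other 3 had none in WT. In Tet2KO alone were chr4:114733519-114734068 and chr4:114745676-114746120, with scores from 50.03 to 57.20. These scores lie close to the limit of 50.00. For chr4:114708179-114708905 the nearest Tet2KO peaks were 73 and 90 bp away, and a WT peak was 58 bp away. It and chr4:114745676-114746120 were no longer called when peaks up to 200 bp apart were joined. With equal numbers of top peaks, only chr4:114754047-114754684 of these 6 regions kept its call. For 5mC the regions gained in DKO were chr11:102219575-102219882 at Slc4a1 (308 bp, scores of 89.37 and 89.89) and chr4:114705419-114705690 at Tal1 (272 bp, scores of 82.66 and 87.09), and neither had a peak in the Tet2KO library. None of the regions called in either mark kept its call at a score of at least 100. This follows from the scores given, since each call rested on at least 1 peak scoring below 100.

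**Figure D5:**
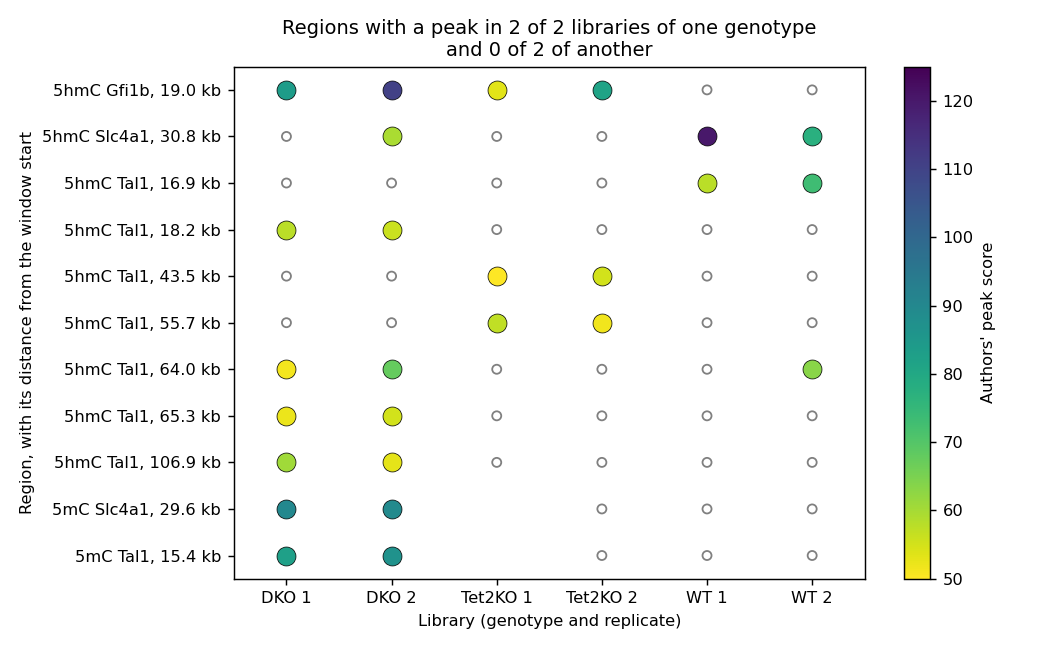
Regions with a peak in 2 of 2 libraries of 1 genotype and 0 of 2 of another, down the page by mark and locus with their distance from the window start (kb), against the libraries DKO, Tet2KO and WT from left to right; filled circles are peaks coloured by the authors' score, small open circles mark a library without a peak, and no symbol stands where no 5mC library was used. Of the 9 regions of 5hmC, 7 are at Tal1, which holds 28 of all 71, and the Gfi1b region has peaks in all 4 knockout libraries.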

How the data were processed

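5hmC and 5mC were profiled in LK cells as described above. The submitters' processing notes name MACS 1.4.2, Bowtie 0.12.9, CASAVA 1.4, Cuffdiff 2.2.1, TopHat2 2.0.8 and build mm9, without saying which tool made which file. The authors deposited 1 peak list per library, with other columns holding each peak's positions and a score of at least 50.00, which has the form of the −10 log10 p-value that MACS writes. The sources used here do not state the control library, the treatment of duplicate reads or the read depth, so no counting intervals could be made.

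From these lists the covered length of each window and the regions (peaks of all libraries of a mark overlapping by at least 1 bp, joined) were computed with Python 3.11.15, pandas 2.3.3 and numpy 2.4.6. Covered fractions of the 5 windows with all 50 kb bins, and of all 10 kb bins, were arcsine-transformed and compared with limma 3.58.1 in R 4.3.3. Bins needed a peak in at least 2 libraries, all 3 genotypes entered the 5hmC fit, and p-values were adjusted over all features by the Benjamini-Hochberg method. These programs were tested on simulated data. Within each locus the widest region of each mark, every region lost or gained, regions with both marks in every library (at most the widest 3) and 10 kb bins with an unadjusted p under 0.05 were named. The regions with the highest scores or the widest range of scores, and the regions and bins that describe the stretches, were chosen after their values were seen. The loci and tests were chosen with earlier results of these data known. Alternatives were a score of at least 100, equal numbers of top peaks, untransformed fractions, a mean covered fraction of at least 0.05, other bin sizes, other rules for joining peaks, a replicate block and leaving out each library. The 5mC Tet2KO library was numbered as in its title (2), although its list carries the number 1. Gene names, neighbours and promoters came from RefSeq GRCm38 and were not placed on mm9. Other erythroid genes were not analysed here, since their mm9 positions were not at hand.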

Additional observations from a re-analysis of the deposited data

Results flagged for a closer look

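The lone Tet2KO 5mC library enters none of the comparisons tested. It had a peak in 7 regions of the loci that had none in either WT library, 20.6% of its 34 regions there, against 17.1% of its regions over the genome. The same count was 9 of 39 (23.1%, against 19.2% genome-wide) in the first DKO library and 7 of 33 (21.2%, against 14.7%) in the second. The 7 regions were chr2:28470752-28471051 and chr2:28493986-28494218 at Gfi1b, chr4:114701198-114701405, chr4:114719856-114720179 and chr4:114774468-114774707 at Tal1, and chr9:21775320-21775539 and chr9:21776326-21776605 at Epor. Of these, 4 had a peak in no other 5mC library, and the other 3 had one in 1 DKO library. With 1 library the difference was not tested.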

How the results depend on the processing

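With 2 libraries per genotype, unknown depth and a score limit close to many peaks, presence calls moved most. Window and bin tests stayed at 0 calls at the loci under every alternative run, the replicate block included (0 windows and 0 bins in each of the 4 comparisons). When only bins averaging a covered fraction of 0.05 or more were fitted, limma called 2 bins elsewhere in the genome in Tet2KO against WT and 5 in DKO against Tet2KO (0 as reported). The deviations of same-numbered libraries were nearly uncorrelated. In 5hmC the correlations were 0.0219 for DKO and Tet2KO, 0.0226 for DKO and WT and 0.00197 for Tet2KO and WT. For 5mC the correlation was −0.0494. Coverage by called peaks cannot decide whether same-numbered libraries belong together. There were 24 results, each for a single locus or bin in a given comparison. Of their 234 alternative values, 27 changed sign and 0 passed the threshold. Settings that changed only the fit were untransformed fractions, the covered-fraction limit, the replicate block and, for windows, another bin size. They left the covered percentages as reported, so their values, counted among the 234, could not change sign. The causes of the sign changes were not tested.

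Counts below are of regions at the loci. At a score of at least 100, Tet2KO against WT gained 1 (3 as reported), DKO against Tet2KO lost 1 (2) and gained 1 (4), and 5mC lost 1 (0) and gained 0 (2). The regions called at that score were other regions than those named above, also where the count stayed the same. With equal numbers of top peaks the gains were 1 in Tet2KO against WT, 1 in DKO against WT (4 as reported) and 1 in DKO against Tet2KO, with 0 lost there. Joining peaks up to 200 bp apart left gains of 1 in Tet2KO against WT and 2 in DKO against WT, and 1 lost in DKO against Tet2KO. Requiring an overlap of 200 bp left 1 gain of 5mC. In these settings 1.99 to 4.05% of regions genome-wide were called the same way. Leaving out each library in turn gave 2 to 5 lost and 4 to 9 gained in Tet2KO against WT (8.02 to 9.84% and 6.46 to 12.9% genome-wide). In DKO against WT it gave 2 to 5 and 6 to 7 (6.28 to 10.4% and 7.93 to 12.2%). In DKO against Tet2KO it gave 3 to 7 and 4 to 9 (4.66 to 11.2% and 7.22 to 9.81%). For 5mC it gave 0 to 4 and 2 to 9 (4.47 to 12% and 5.44 to 13.2%). With a library left out, 1 library stood for its group, and the genome-wide shares rose too.

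Differences in covered length (kb, first-named genotype minus the other) that changed sign were these, and values that kept their sign are named as such. At a score of at least 100, Epor became 0.8 in Tet2KO against WT and 0.431 in DKO against WT, Slc4a1 0.443 in DKO against WT and Klf1 -0.429 in DKO against Tet2KO, and for 5mC Gfi1b became -0.415, Epor -0.325 and all 5 windows -0.198. With equal numbers of top peaks, Slc4a1 became 0.147 in DKO against WT and, for 5mC, -0.133, and Gfi1b -0.093 for 5mC. All 5 windows kept their sign there, with 0.297 for 5mC (1.05 as reported). The difference of 5hmC minus 5mC over the 5 windows, within a genotype, kept its sign too. It was 23.8 in DKO and 20.1 in WT at a score of at least 100, and 29.9 in DKO with equal numbers of top peaks. Leaving out each library gave, in Tet2KO against WT, -1.8 to 0.936 at Gfi1b, -2.85 to 0.233 at Slc4a1 and -1.31 to 0.986 at Epor. In DKO against WT it gave -0.732 to 0.721 at Slc4a1 and -1.67 to 0.631 at Epor. In DKO against Tet2KO it gave -0.362 to 1.43 at Klf1, -1.08 to 1.63 at Tal1, -0.238 to 2.85 at Slc4a1 and -1.05 to 0.337 at Epor. For 5mC it gave -0.153 to 0.161 at Klf1, -0.233 to 0.25 at Gfi1b and -0.125 to 0.629 at Slc4a1. Without the first Tet2KO library, the 5hmC difference over all 5 windows changed sign in Tet2KO against WT and in DKO against Tet2KO.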
